A study of Mus musculus with 9 samples.

Results

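The first 2 days of differentiation of wild type (WT) mouse embryonic stem cells (ESCs) are described here as the difference between 2 of the 9 RNA-seq libraries of the series, 1 from undifferentiated WT ESCs (day 0) and 1 from WT cells at day 2. The difference was taken for all 15074 genes and all 38385 repeat copies used. The WT ESCs are the J1 line and carry no transgene. Day 0 cells were kept on mitomycin C-treated embryonic fibroblasts, which serve as a feeder layer, in serum medium with leukemia inhibitory factor (LIF). For differentiation, feeder cells were depleted by letting them attach to gelatin, the ESCs formed embryoid bodies for 1 day without LIF, and adherent culture followed, so day 2 differs from day 0 in feeder layer, LIF, medium and time together, and these cannot be told apart. The study also followed 1KO cells, which are Dnmt1-null and derive from J1, and 1KO+1CI cells, which are 1KO cells with a CAG-driven transgene for a catalytically inactive DNMT1, picked as a clone. These lines and WT day 4 are given only beside the WT values.

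Each condition has 1 library. No value has a replicate error, no test was run, and no difference can be set against the spread between cultures. Values are FPKM as the authors deposited them (fragments or reads per 1000 bases of transcript, scaled to library size), and differences are day 2 minus day 0 in log2(FPKM + 1). A gene or copy is called risen or fallen past a difference of 1 in either direction. Adding 1 shrinks differences of genes near or below 1 FPKM. From the steps in the values, the libraries hold about 20600000 counted reads at day 0 and 24300000 at day 2, so that 1 FPKM over 2000 bases is about 41.3 and 48.6 reads. No listed gene or copy has a value of 0 in any of the 9 libraries, so genes without reads in some library are not among those described.

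Mouse ESCs in serum and LIF hold a naive state, in which LIF acts through its receptor and STAT3 on *Klf4* and *Socs3*, while OCT4 (*Pou5f1*) and SOX2 form the core of pluripotency. When LIF is withdrawn, cells pass through a formative state, in which FGF and ERK signalling acts, the de novo methyltransferases rise and naive genes are shut off. ATF4 is the transcription factor of the integrated stress response and switches on amino acid synthesis, amino acid import and tRNA charging, and HIF1 is the factor that drives glycolysis when oxygen is low.

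Pluripotency genes check the cell type of the label, but not its day or genotype. *Pou5f1* was at 632 FPKM at day 0 and 980 FPKM at day 2, *Sox2* at 206 and 199 FPKM, and *Zfp42*, the naive marker also called REX1, at 266 and 336 FPKM. Of the other ESC markers set for this check, *Nanog* was lower at day 2 and *Esrrb* changed little, as given below with the naive genes. Both libraries are therefore rich in pluripotency RNA, though not every marker held its level. Fibroblast genes differ between them. The 20 measured members of a fibroblast list summed to 198 FPKM at day 0 and 44.3 FPKM at day 2, and none was at 0. In the other lines this sum went from 376 to 58.3 FPKM (1KO) and from 463 to 83.1 FPKM (1KO+1CI). Bulk RNA cannot tell fewer cells of a type from less RNA per cell.

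Over all genes, 329 rose and 584 fell, which is 2.18% and 3.87% of the 15074, around a median difference of -0.01. Regardless of size, 7315 genes were higher and 7754 lower at day 2. Among the 12 largest rises of genes with at least 1 FPKM in either library were those of *Chac1*, *Hmox1*, *Ubap1l*, *Capn3*, *Mir291b*, *Cth*, *Mir7069*, *Exoc3l*, *Ankrd45*, *Mir363* and *Mt2*. The 12 deepest falls were in *Fos*, *Ndufa4l2*, *Psmb8*, *Mir6381*, *Fosb*, *Col3a1*, *Gbp2*, *Fgf8*, *Lefty1*, *Klf4*, *Gbp2b* and *Isg15*. *Chac1*, which degrades glutathione and is an ATF4 target, had the largest rise, from 2.83 to 29.3 FPKM (2.98), and lies at chr2:119351229-119354381 (GENCODE M21, GRCm38). *Fos*, an immediate early transcription factor gene, had the deepest fall, from 34.1 to 1.34 FPKM (-3.91), and lies at chr12:85473890-85477273. *Mir7069* lies inside *Farsa* (68.7 and 91.2 FPKM) and *Mir6381* lies across *Gbp2*, so that their reads may belong to the larger genes.

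**Figure D1:**
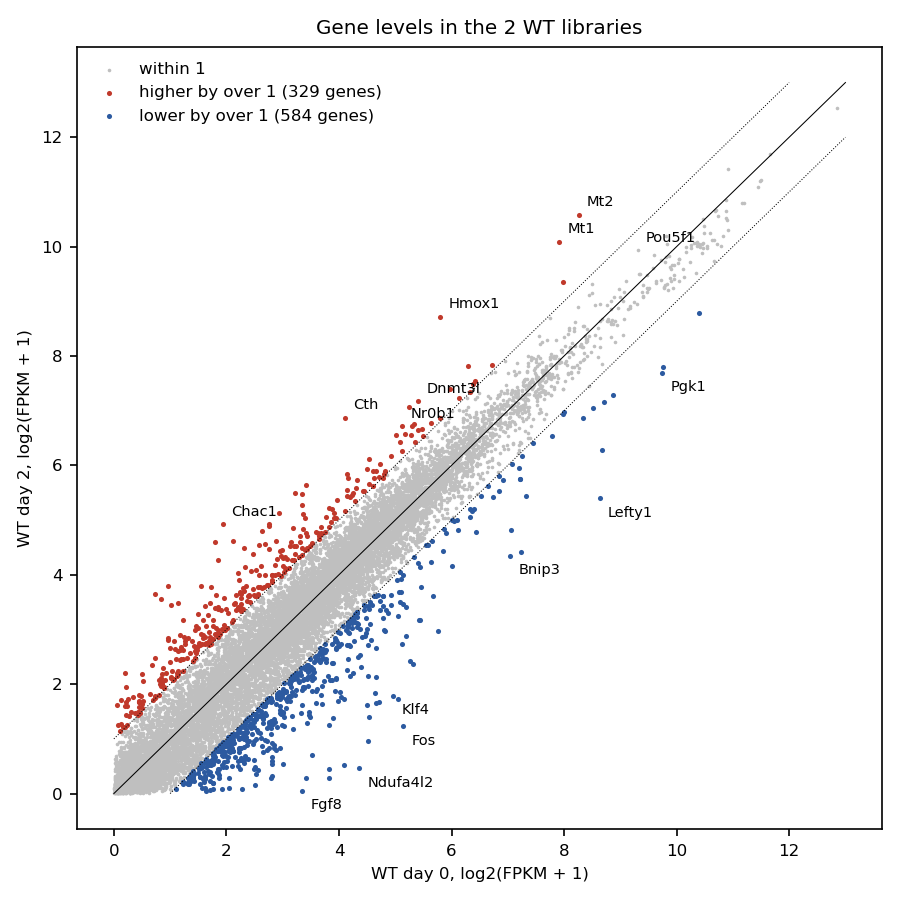
Each point is 1 of 15074 genes, with WT day 0 on the x axis and WT day 2 on the y axis, both in log2(FPKM + 1). Dotted lines mark a difference of 1, with 329 genes above the upper line in red and 584 below the lower line in blue, and Pou5f1 lies between the lines.

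Amino acid response genes rose as a group. Of 27 genes of the ATF4 list, 18 rose (66.7%, against 2.18% of all genes) and 0 fell. At day 2, 26 were higher, and the median difference was 1.20, against -0.01 over all genes. The ATF4 list was the only one of 39 gene lists with a median above 0.5. These lists were chosen with earlier results of these data known, so that ranking is description only. Their RefSeq promoters (GRCm38.p6, 250 bases before to 50 after the start) were searched on both strands for the CARE letters TGATGNAA, a motif bound by ATF4. The motif was found in 5 of the 14 risen genes with a promoter window (35.7%), in 8 of all 23 members with one (34.8%), and in 2.77% of all 11638 genes with one. The share in risen members was close to that in all members. Members were picked as genes of the ATF4 response, so all genes are not a neutral comparison for them. A match describes the letters and does not show binding. The stretches of these 5 genes are shown because they are the risen members whose window holds the letters, with the motif in capitals and cut at the transcription start unless the motif lies after it, on *Chac1* chr2:119351024-119351081 (+), *Trib3* chr2:152344029-152344056 (-), *Nupr1* chr7:126625548-126625605 (-), *Pck2* chr14:55540138-55540195 (+) and *Asns* chr6:7693210-7693257 (-).
Chac1: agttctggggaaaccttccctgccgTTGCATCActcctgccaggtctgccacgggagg
Trib3: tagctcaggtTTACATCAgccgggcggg
Nupr1: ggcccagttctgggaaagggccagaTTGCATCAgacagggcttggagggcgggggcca
Pck2: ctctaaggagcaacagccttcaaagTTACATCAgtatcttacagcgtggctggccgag
Asns: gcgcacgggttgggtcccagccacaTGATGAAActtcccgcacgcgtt

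Transcription factors and regulators of the response were among the risen members. *Atf4* went from 77.7 to 224 FPKM (1.51) and *Atf5*, a related factor gene, from 8.30 to 44.2 FPKM (2.28). *Trib3*, a pseudokinase that dampens the response, went from 6.62 to 34.1 FPKM (2.20). *Nupr1*, a stress-induced chromatin protein gene, went from 9.70 to 49.0 FPKM (2.22). All 4 were also higher at day 2 than at day 0 in 1KO and 1KO+1CI cells. *Ddit3* (CHOP) was at 6.76 and 10.5 FPKM (0.57) and *Atf3* at 6.34 and 3.84 FPKM (-0.60), so neither rose past 1.

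Synthesis and import genes followed. *Cth*, which makes cysteine from cystathionine, had 16.2 FPKM at day 0 and 116 FPKM at day 2 (2.77), and *Cbs*, the enzyme before it, started at 5.43 FPKM (1.32). In the serine and one-carbon pathway, *Psph* (1.30), *Shmt2* (1.41), *Mthfd2* (1.55) and *Aldh1l2* (1.06) rose, while *Psat1* (103 to 207 FPKM, 0.99) and *Phgdh* (78.3 to 120 FPKM, 0.61) stayed just or well under 1. *Asns*, asparagine synthetase, went from 79.0 to 160 FPKM (1.01). Among amino acid transporters, *Slc7a5* (1.10) and *Slc7a3* (1.20) rose, and *Slc3a2*, the partner chain of SLC7A5, was at 72.6 and 126 FPKM (0.79). The remaining risen members were *Pck2* (2.16), *Sesn2* (1.59), *Gdf15* (1.80) and *Stc2* (1.17). *Slc7a11*, the cystine transporter, was at 1.28 and 1.69 FPKM (0.24).

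For the other lines, 1KO had an ATF4 median of 0.98 and 1KO+1CI one of 0.81, and at WT day 4 it was 0.89 above day 0. A list of 20 cytosolic tRNA synthetase genes, chosen after values were seen, had 3 risen members, *Aars* (1.11), *Nars* (1.13) and *Cars* (1.23), and 16 were higher at day 2, with a median of 0.49. *Herpud1*, a gene of endoplasmic reticulum quality control, rose from 6.39 to 23.7 FPKM (1.74), while the other 17 genes of that chaperone list did not pass 1 and its median was 0.16.

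Oxidative stress and metal genes moved in part. Of 15 genes, 4 rose (26.7%, against 2.18% of all genes) and 0 fell. *Hmox1*, heme oxygenase, went from 54.7 to 420 FPKM (2.92), *Mt1* from 240.0 to 1090 FPKM (2.18), *Mt2* from 306 to 1537 FPKM (2.33) and *Fth1*, the ferritin heavy chain, from 253 to 649 FPKM (1.36). Metallothioneins bind zinc and copper. *Hmox1* was at 199 FPKM at WT day 4, and *Mt1* and *Mt2* were at 278 and 270 FPKM, near day 0. The NRF2 targets *Nqo1* (0.70), *Gclm* (0.14), *Gclc* (-0.26), *Srxn1* (0.15) and *Txnrd1* (-0.76) did not pass 1 in either direction. Of 22 p53 target genes, 5 rose (22.7%, against 2.18% of all genes), and the median was 0.44. The 5 were *Ddit4l* (1.08), *Mdm2* (1.15), *Trp53inp1* (1.24), *Perp* (1.40) and *Sesn2* (1.59). *Cdkn1a*, the cell cycle inhibitor p21, was at 37.5 and 48.6 FPKM (0.37).

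Glycolysis fell as a group, and this was larger in WT than in the other lines. Of 22 genes of glycolysis and of glucose and lactate transport, 11 fell and 0 rose, 20 were lower at day 2, and the median was -0.98. The summed level went from 8558 to 3866 FPKM. In the other lines this sum went from 6055 to 5956 FPKM (1KO) and from 6474 to 5817 FPKM (1KO+1CI). For 1KO the same median was -0.02, for 1KO+1CI it was -0.17, and at WT day 4 it was 0.06 against day 0. The difference between lines was not tested. *Aldoc* (13.9 to 1.62 FPKM, -2.51), *Pgk1* (853 to 206 FPKM, -2.04), *Ldha* (862 to 222 FPKM, -1.95), *Pfkl* (-1.88) and *Slc16a3*, the lactate exporter (-1.66), fell most. *Aldoa*, the main aldolase, went from 1349 to 441 FPKM (-1.61) and back to 1114 FPKM at day 4. Glucose transporters *Slc2a1* (322 to 115 FPKM, -1.47) and *Slc2a3* (467 to 156 FPKM, -1.58) fell too, as did *Tpi1* (-1.56), *Hk1* (-1.27) and *Gpi1* (-1.04). Of these, *Aldoc*, *Hk1* and *Slc2a3* also fell past 1 in both other lines. *Pkm*, at 1624 and 854 FPKM (-0.93), and *Eno1*, at 1405 and 939 FPKM (-0.58), did not pass 1, and *Pfkm* was at 21.1 and 37.0 FPKM (0.78). *Gapdh*, at 15.2 and 12.8 FPKM, lies far below its neighbours in the pathway, and since it has many processed pseudogenes its reads may have been divided, so its value is uncertain.

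Hypoxia genes went the same way, with 7 of 23 fallen (30.4%, against 3.87% of all genes), 0 risen and 21 lower. The median was -0.77 (1KO -0.33, 1KO+1CI -0.35). *Egln3*, a HIF prolyl hydroxylase, went from 23.9 to 2.58 FPKM (-2.80), and *Bnip3*, a mitophagy receptor, from 131 to 19.4 FPKM (-2.69). *P4ha1* (24.4 to 5.34 FPKM), *Egln1* (-1.80), *P4ha2* (-1.28), *Anxa2* (-1.19) and *Ndrg1* (-1.16) were the other fallen members. *Vegfa* was at 11.0 and 10.8 FPKM (-0.03) and *Kdm3a* at 28.4 and 44.7 FPKM (0.64). At WT day 4 *Bnip3* was at 138 FPKM and *Egln3* at 16.1 FPKM. The HIF letters ACGTG or GCGTG, read on both strands, stood in the promoters of 17 of 18 hypoxia members and 18 of 21 glycolysis members with a window, but also in 66.2% of all genes, so the letters are common. *Ndufa4l2*, a complex IV-like protein and a further HIF1 target, had the second deepest fall, from 19.5 to 0.385 FPKM (-3.89). Over the 78 oxidative phosphorylation genes as a whole, 1 rose (1.28%), 2 fell (2.56%) and the median was -0.11.

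**Figure D2:**
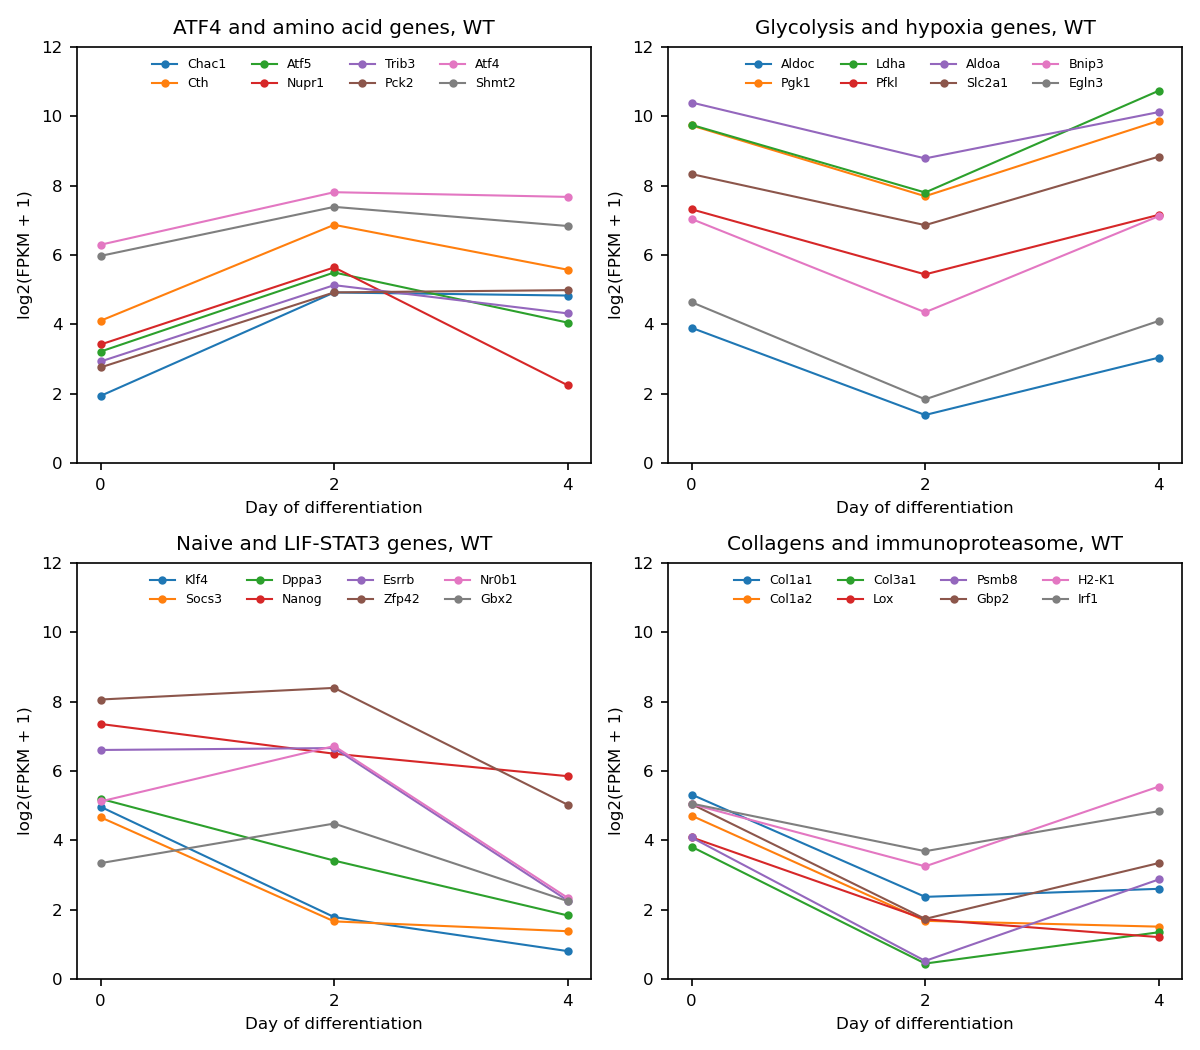
The WT level in log2(FPKM + 1) (y axis) is drawn at days 0, 2 and 4 (x axis) for 8 genes in each of 4 panels, 1 library per point. Glycolysis and hypoxia genes dip at day 2 and are higher again at day 4, ATF4 genes are higher at day 2, and Esrrb, Zfp42, Nr0b1 and Gbx2 are lower at day 4 than at day 2.

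Cholesterol synthesis genes were lower with less spread. Of 25, 24 were lower, 3 fell and 0 rose, with a median of -0.63, against -0.14 (1KO) and -0.12 (1KO+1CI). *Insig1*, which retains the SREBP complex, went from 34.1 to 9.98 FPKM (-1.68), *Fdps*, farnesyl diphosphate synthase, from 119 to 52.3 FPKM (-1.17), and *Dhcr7*, the last reductase of the pathway, from 26.6 to 11.2 FPKM (-1.17). At WT day 4 the list median was 0.13 above day 0.

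Some antigen presentation and interferon-response genes fell. A list of 20 MHC class I, immunoproteasome and interferon-gamma type genes, guanylate-binding protein genes among them, was chosen after values were seen. In it, 15 fell and all 20 were lower (median -1.61, 1KO -0.34, 1KO+1CI -0.29). As the list was picked with these values known, its counts and medians describe its members and no wider group. *Psmb8*, a catalytic immunoproteasome subunit, went from 16.0 to 0.438 FPKM (-3.56), and *Gbp2*, an interferon-induced GTPase, from 32.0 to 2.33 FPKM (-3.31). *Irf1*, the interferon-induced factor gene, went from 32.4 to 11.9 FPKM (-1.37) and *H2-K1*, a class I heavy chain gene, from 32.0 to 8.52 FPKM (-1.79). At WT day 4 these 4 were at 6.32, 9.16, 27.7 and 45.9 FPKM. On the list of 18 interferon-response genes, *Isg15* (9.62 to 0.218 FPKM, -3.12), *Oasl2* (-2.48), *Irf1* and *Ifitm1* (-1.01) fell and the median was -0.35. In the same libraries the summed fibroblast level went from 198 to 44.3 FPKM, while in 1KO cells it went from 376 to 58.3 FPKM beside the much smaller MHC median. The part of feeder cells in these falls was not tested.

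Fibroblast genes themselves had the lowest median of the 39 lists, -1.46, with 13 of 20 fallen (65.0%, against 3.87% of all genes) and 19 lower. *Col3a1*, a fibrillar collagen, went from 13.1 to 0.364 FPKM (-3.37), *Col1a2* from 25.2 to 2.20 FPKM (-3.03), *Col1a1* from 39.0 to 4.17 FPKM (-2.95) and *Lox*, which crosslinks collagen, from 16.0 to 2.31 FPKM (-2.36). In the other lines the medians were -1.77 (1KO) and -1.96 (1KO+1CI). *Serpinf1* was at 6.43 and 6.54 FPKM (0.02).

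**Figure D3:**
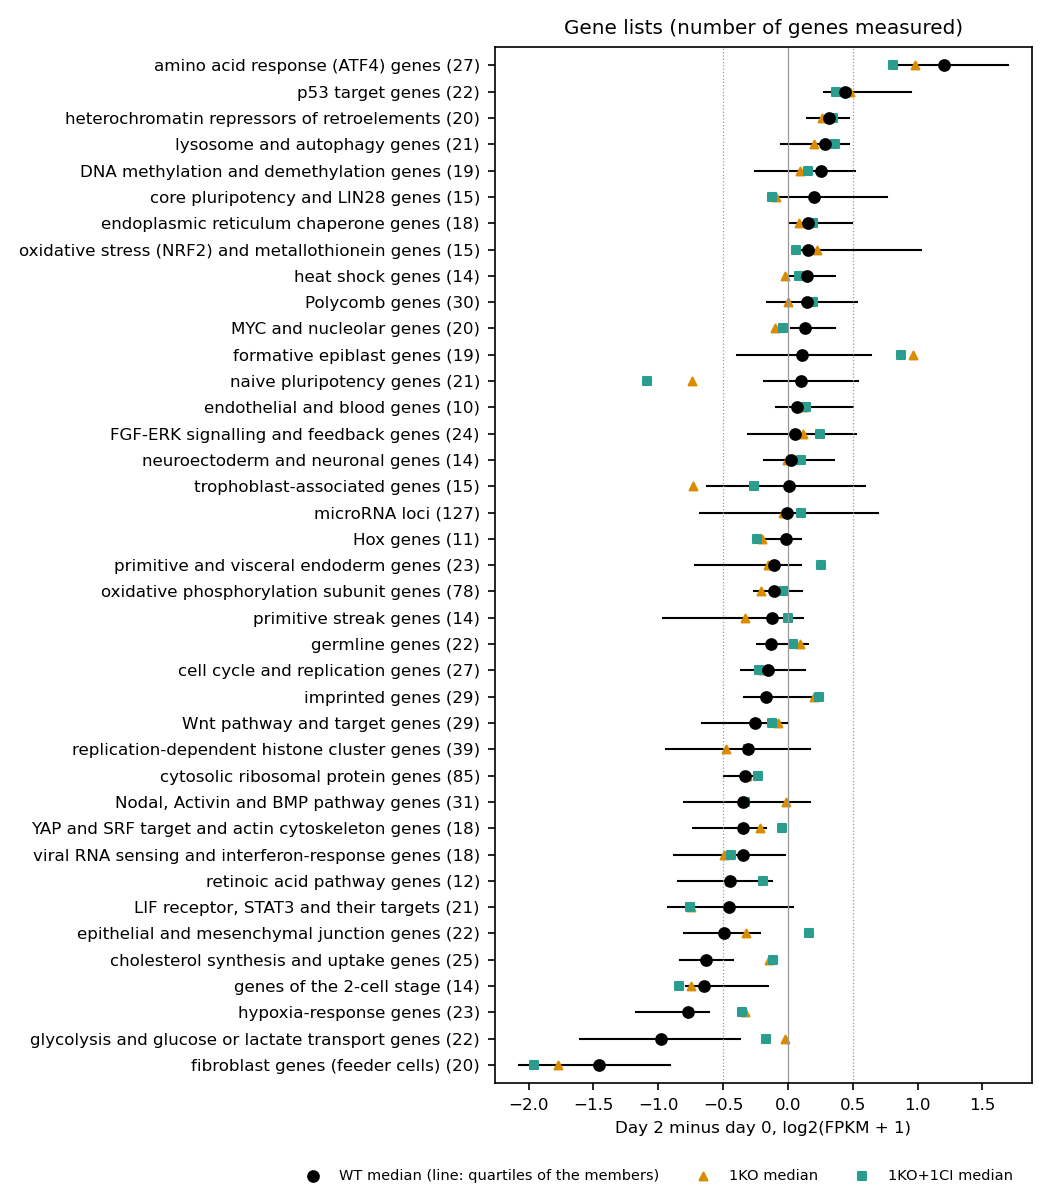
For 39 gene lists (rows, with the number of genes measured) the x axis gives the median day 2 minus day 0 difference in log2(FPKM + 1) for WT (black circle, with a line over the quartiles of the WT members), 1KO (triangle) and 1KO+1CI (square). The WT median passes 0.5 for the ATF4 list and lies below -0.5 for 5 lists, and for glycolysis and cholesterol the other lines sit near 0.

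LIF targets and naive genes divided. In the list of the LIF receptor, STAT3 and their targets, 5 of 21 fell (23.8%) and 2 rose (9.52%), with a median of -0.46. Over all genes 3.87% fell and 2.18% rose. *Klf4* went from 30.3 to 2.45 FPKM (-3.18), *Socs3*, the feedback inhibitor of the receptor, from 24.4 to 2.17 FPKM (-3.00), *Bcl3* from 21.5 to 2.06 FPKM (-2.88) and *Stat3* from 21.2 to 6.60 FPKM (-1.55). *Ier3* fell too (-1.50). *Myc*, from 9.27 to 33.6 FPKM (1.75), and *Gbx2*, from 9.16 to 21.4 FPKM (1.14), rose. Both *Klf4* and *Socs3* had lower values still at WT day 4, 0.749 and 1.60 FPKM. The STAT letters TTCNNNGAA stood in the promoter of 1 of 5 fallen members with a window, against 7.97% of all genes. That member is *Socs3*, whose stretch at chr11:117969487-117969545 (minus strand) is shown because the gene is the classic feedback target, with the motif in capitals.
Socs3: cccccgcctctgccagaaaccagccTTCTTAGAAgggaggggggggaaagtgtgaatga

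The naive list as a whole had 3 risen and 3 fallen of 21 (14.3% each, against 2.18% and 3.87% of all genes). Its WT median of 0.10 compares with -0.74 (1KO) and -1.09 (1KO+1CI). By WT day 4 its median was -2.67 against day 0. Besides *Klf4*, *Dppa3* (35.7 to 9.68 FPKM, -1.78) and *Prdm14* (5.60 to 2.30 FPKM, just past the threshold), both tied to naive and germ cell identity, fell. *Nr0b1*, from 33.8 to 104 FPKM (1.60), and *Fgfbp1* (1.23) rose with *Gbx2*. *Nanog* was at 163 and 89.5 FPKM (-0.86), *Esrrb* at 96.5 and 100.3 FPKM (0.06) and *Klf2* at 161 and 158 FPKM (-0.03). These 3 are central factors of the naive network, and they did not pass 1. In 1KO cells *Esrrb* went from 116 to 75.5 FPKM and *Nanog* from 205 to 58.8 FPKM. Of 15 core genes, *Foxd3*, a repressor needed by ESCs, rose from 4.56 to 19.7 FPKM (1.90), none fell, and the median was 0.20.

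Formative genes were also divided, with 3 risen and 3 fallen of 19 (15.8% each, against 2.18% and 3.87% of all genes). Their median was 0.11, against 0.96 (1KO) and 0.88 (1KO+1CI). *Etv4* (9.17 to 37.8 FPKM, 1.93), *Grhl2* (1.45) and *Slc7a3* rose, and *Sox3* (-1.19), *Fgf5* (6.97 to 2.52 FPKM, -1.18) and *Tead2* (-1.14) fell. *Otx2*, which drives the formative state, was at 19.6 and 31.2 FPKM (0.64). Of 24 FGF and ERK signalling and feedback genes, 5 rose (20.8%) and 3 fell (12.5%), against 2.18% and 3.87% of all genes. The median was 0.06. *Spry4* (9.20 to 43.5 FPKM, 2.12), *Etv4*, *Dusp6* (21.5 to 60.0 FPKM, 1.44), *Dusp4* (1.41) and *Phlda1* (1.39) rose. *Fos* (-3.91), *Fgf5* and *Fgf8* fell, and the ligand gene *Fgf8* went from 9.17 to 0.038 FPKM (-3.29) and back to 8.51 FPKM at day 4.

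Nodal and BMP genes had opposite members. *Lefty1*, the secreted Nodal inhibitor and target, went from 395 to 41.1 FPKM (-3.23), and *Lefty2* from 148 to 52.7 FPKM (-1.48). *Bmp7* (-1.31) and *Furin* (-1.15) fell too. *Bmp4* rose from 6.45 to 18.5 FPKM (1.39) with its target *Id1* (23.6 to 53.6 FPKM, 1.15), and *Fst* rose (1.01). *Lefty1* was lower at day 2 in the other lines as well, with 232 to 53.4 FPKM in 1KO and 245 to 64.1 FPKM in 1KO+1CI cells. In Wnt genes, *Notum*, a secreted inhibitor, rose (8.03 to 27.8 FPKM, 1.67) and *Sp5* (-1.78), *Sfrp2* (-1.45), *Wnt4* (-1.23), *Fzd2* (-1.09) and *Cdx1* fell. For *Cdx1* the values were whole reads at its annotated length, 49 at day 0 and 7 at day 2, an FPKM ratio of 0.121 with an exact 95% interval of 0.0464 to 0.269 that covers counting error only. Tight junction genes *Cldn3* (-1.85), *Cldn7* (-1.48) and *Cldn6* (-1.20) fell.

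Of 19 DNA methylation and demethylation genes, only 2 rose (10.5%, against 2.18% of all genes) and 0 fell, with a median of 0.25. *Dnmt3l*, the catalytically inactive cofactor of the de novo enzymes, rose from 41.3 to 144 FPKM (1.77). *Zfp57*, which guards imprints, rose from 37.0 to 132 FPKM (1.81). At WT day 4 they were at 42.9 and 16.7 FPKM, and in 1KO cells *Dnmt3l* stood at 203 FPKM already at day 0. Of 30 Polycomb genes, *Phf19* (1.79) and *Bmi1* (1.42) rose (6.67%), 0 fell and 13 were lower at day 2. Of 20 heterochromatin repressors of retroelements, 1 rose (5.0%) and 0 fell. This was *Zfp809*, which silences retroviral elements, from 8.44 to 22.0 FPKM (1.28). Of 29 imprinted genes 5 fell (17.2%, against 3.87% of all genes) and 0 rose. Foremost were *H19*, at 6.80 FPKM at day 2 (-2.79), and its neighbour *Igf2* from 49.6 to 11.2 FPKM (-2.05). *Phlda2* (-1.39), *Peg12* (-1.11) and *Sgce* (-1.05) fell too. *H19* and *Igf2* also fell past 1 in 1KO and 1KO+1CI cells, and the part of feeder cells was not tested. Of 39 histone cluster genes 9 fell (23.1%, against 3.87% of all genes), 14 were higher at day 2, and the median was -0.31. Their RNA ends without a poly(A) tail and these libraries were enriched with oligo(dT), so the part of that step was not tested. The 14 measured genes of the 2-cell stage, Zscan4 genes among them, were all under 3 FPKM at day 0, and 13 were lower at day 2 (median -0.65), with none past 1.

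Of 127 microRNA loci, 19 rose and 11 fell (8.66%), against 2.18% and 3.87% of all genes, with a median of -0.01. In oligo(dT) libraries such loci collect fragments of primary transcripts and not mature microRNAs, and of the 66 loci whose values were whole reads, 61 had under 20 reads in both WT libraries. The 8 loci of the miR-290 cluster, an ESC-specific cluster, were a list chosen after values were seen, and 6 rose (median 1.35). *Mir290b*, 1 of the 6 with 1 and 4 reads, lies over *Mir290a* on the opposite strand, so its reads may belong to that locus. *Mir291b* went from 2.47 to 23.1 FPKM (2.79). For *Mir292* the change was 2 to 10 reads, a ratio of 4.24 with an exact 95% interval of 0.905 to 39.9 that includes 1. *Mir363* and *Mir92-2* of the miR-106a cluster rose as well (2.42 and 1.41), *Mir92-2* from 3 to 13 reads. The 3p products that RefSeq gives for the loci of both clusters (GRCm38.p6) are shown with the seed (bases 2 to 8) in capitals because the seed sets the targets, also for *Mir290a* (0.70) and *Mir291a* (0.53), which did not pass 1. The seed AAGUGCU is shared by miR-291a-3p, miR-294-3p and miR-295-3p, and miR-363-3p and miR-92a-3p share AUUGCAC. By contrast, miR-290a-3p, miR-290b-3p, miR-291b-3p and miR-293-3p each have a seed of their own among those shown. No 3p product of *Mir292* is shown, so a seed it may share with these is not covered.
miR-290a-3p: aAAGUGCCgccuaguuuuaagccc
miR-290b-3p: aAGUGCCCccauaguuugagua
miR-291a-3p: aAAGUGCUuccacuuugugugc
miR-291b-3p: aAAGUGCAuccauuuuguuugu
miR-293-3p: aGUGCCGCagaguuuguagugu
miR-294-3p: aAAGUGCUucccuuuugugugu
miR-295-3p: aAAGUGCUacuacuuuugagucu
miR-363-3p: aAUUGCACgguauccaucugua
miR-92a-3p: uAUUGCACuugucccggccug

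More repeat copies rose than fell on the authors' scale. Of 38385 copies, 3507 rose (9.14%) and 2037 fell (5.31%), with a median of 0.12, whereas scaling the libraries by the median ratio over repeat copies left 2300 risen and 2662 fallen. Of 371 families with at least 10 copies, 18 had a median above 0.5 (4.85%) and 2 one below -0.5 (0.539%). Young LINE-1 families led by number of copies. L1Md_T had a median copy level of 0.413 FPKM at day 0, 1.57 FPKM at day 2 and 0.580 FPKM at day 4. Of its 1477 copies, 1468 were higher at day 2, and the median difference was 0.83. L1Md_A (997 copies, 985 higher, 0.63) and L1Md_Gf (58 copies, 57 higher, 0.77) followed, while L1Md_F2 (0.07) did not. The 2966 copies of L1Md families together had a median of 0.66 and the 2858 copies of other L1 families one of 0.05. The L1Md_T median was 0.59 for 1KO and 0.56 for 1KO+1CI. Copies of a family may share reads and come from 1 library, so they are not replicates.

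Satellites and ETn elements were higher too. MMSAT4, a satellite of 313 copies, went from a median of 8.20 to 15.2 FPKM and was at 8.40 FPKM at day 4 (0.78, 303 higher), and MurSatRep1 had a median of 0.55. RLTR20B1 (0.95, 11 copies) and RLTR1A2_MM (0.84, 10 copies) had the highest medians but few copies. RLTRETN_Mm (0.66) and MMETn-int (0.52), the LTR and body of ETn retrotransposons, were higher in 62 of 65 and 75 of 79 copies. Both had larger medians in 1KO+1CI cells (0.93 and 1.01). With the libraries scaled by the median ratio over repeat copies, the WT medians were 0.52 (RLTRETN_Mm) and 0.37 (MMETn-int).

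The VL30 retroelement was the main one to fall. MMVL30-int went from a median of 3.16 to 0.782 FPKM (-1.07, 36 of 38 copies lower) and its LTR RLTR6_Mm from 1.74 to 0.789 FPKM (-0.81, 13 of 13 lower). Both medians were lower still in 1KO (-1.51 and -1.34) and 1KO+1CI cells (-1.37 and -1.35). Taking the lines in the order WT, 1KO, 1KO+1CI, the day 0 median of MMVL30-int was 3.16, 4.86 and 5.33 FPKM. That of RLTR6_Mm was 1.74, 3.56 and 3.73 FPKM. The summed fibroblast level at day 0 rose in the same order (198, 376 and 463 FPKM). Whether feeder cells had a part in the VL30 falls was not tested. IAPEz-int (0.04), MERVL-int (-0.05) and MT2_Mm (0.02), retroviral families, moved little in WT. The other lines had -0.54 (1KO) and 0.77 (1KO+1CI) for IAPEz-int, -0.75 and -0.95 for MERVL-int, and -0.58 and -0.63 for MT2_Mm. SINE copies had a median of 0.05.

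**Figure D4:**
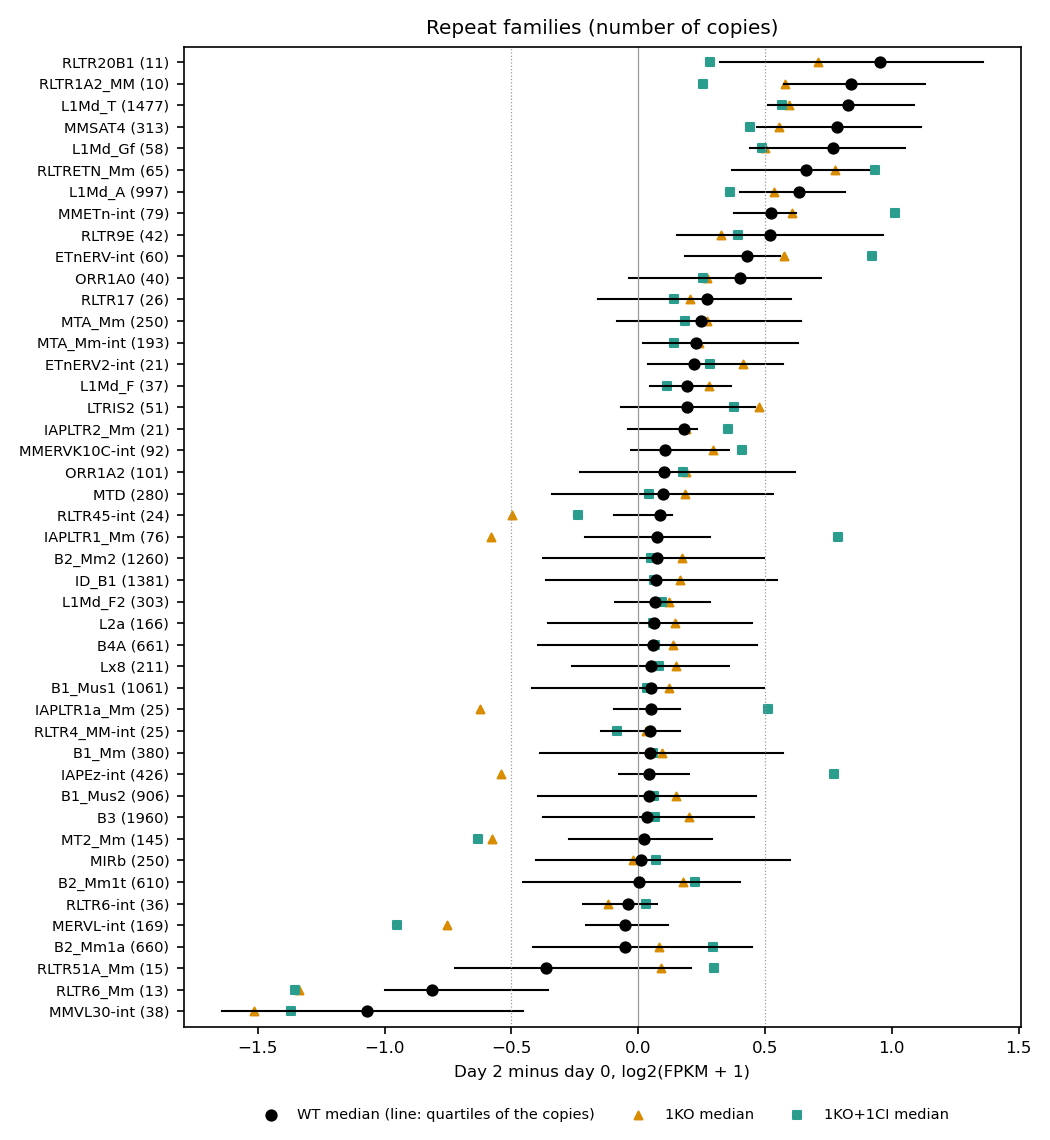
For 45 families with at least 10 copies (rows, with copy number), the x axis gives the median day 2 minus day 0 difference over copies in log2(FPKM + 1), WT as a circle with a line over the quartiles of copies, 1KO as a triangle and 1KO+1CI as a square. L1Md_T, MMSAT4 and L1Md_A lie above 0.5 and MMVL30-int and RLTR6_Mm below -0.5 in WT.

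The WT differences resembled those of the other lines in part. Across 15074 genes, which are not independent replicates, Pearson's r was 0.56 between WT and 1KO and 0.51 between WT and 1KO+1CI, and 0.79 between 1KO and 1KO+1CI, pairs without a shared library. Of the 329 risen genes, 91 (27.7%) rose in 1KO and 83 (25.2%) in 1KO+1CI cells, against 1.39% and 1.81% of all genes. Of the 584 fallen genes, 189 (32.4%) fell in 1KO and 174 (29.8%) in 1KO+1CI cells, against 3.32% of all genes in each. In both other lines at once, 61 (18.5%) of the risen genes rose and 144 (24.7%) of the fallen genes fell. *Atf4*, *Capn3* and *Ankrd45* are among the genes that rose in all 3, and the 144 shared falls hold 12 of the 20 fibroblast genes, *Col1a1*, *Col3a1* and *Lox* among them. *Sumo2* went from 149 to 20.5 FPKM in WT but had 18.2 and 80.8 FPKM in 1KO+1CI cells. It has close copies elsewhere in the genome, so its value is uncertain.

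Base composition moved with the differences in WT and 1KO cells. With genes in 5 equal groups by GC content, from the lowest to the highest, the median went from 0.06 to -0.12 in WT, from 0.08 to -0.06 in 1KO, and from 0.04 to 0.07 in 1KO+1CI cells. Its part in single genes was not tested, but after centring in 20 GC bins, added after the values were seen, the list medians above kept their sign, except that of the microRNA loci (0.06), and 340 genes rose and 496 fell.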

How the data were processed

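Total RNA of WT, 1KO and 1KO+1CI cells at days 0, 2 and 4 was enriched with oligo(dT) and sequenced, 1 library for each condition. The deposited values are FPKM, which the authors obtained with analyzeRepeats.pl of HOMER after read trimming (Trim Galore), alignment to mm10 (HISAT2) and file conversion (SAMtools). Tool versions, strandedness and the treatment of multiply aligned reads were not given in the sources used here. Of 15095 gene entries, 21 (20 dates in place of symbols and 1 named 0) were left out.

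Differences were computed as log2(FPKM + 1), with calls past 1 for genes and copies, and past 0.5 for medians of lists and of families with at least 10 copies. Members and lists were chosen with earlier results of these data known, and 5 further lists after the values were seen. Named genes are the 12 largest rises and falls with at least 1 FPKM in either WT library and list members past 1. Where none of a list passed 1, its most abundant genes qualified, and further members under 1 and *Sumo2* were named after their values were seen. A few genes that meet this rule are not reported here. Repeat families named are a set list plus the 6 highest and lowest medians, and a few more chosen afterwards. Depth was read from the steps of FPKM times length in genes with 1 transcript, if 1 step is 1 read. Whole reads (tolerance 0.15) were found for 411 of 1140 such genes (36.1%), and intervals are exact Clopper-Pearson intervals for counting error only. Gene coordinates come from GENCODE M21 and sequences from RefSeq. If values were spread evenly, 9% would lie within this tolerance in both libraries, so some of these read counts may be accidental. The calls, the depth search and the whole-read step were tested on simulated data only after the real values had first been computed. The depth search then failed in part, since multiples of the depth also give whole reads, and was corrected, which left the depths given here as they were. As alternatives, 1 was replaced by 0.1 or 0.01 before the logarithm, and a minimum of 1 FPKM, other scalings, the mean for the median and GC centring were tried. Python 3.11.15, numpy 2.4.6, pandas 2.3.3, scipy 1.17.1 and matplotlib 3.10.9 were used.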

Additional observations from a re-analysis of the deposited data

Results flagged for a closer look

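5 genes passed 1 in WT in one direction and passed 1 in both other lines in the opposite direction. Each line has 1 library per day, so the difference between lines was not tested. *Fgf5*, a formative marker, differed by -1.18 in WT, against 1.75 (1KO) and 1.93 (1KO+1CI). *Car4*, a carbonic anhydrase gene, differed by -1.67, 1.35 and 2.08 in the same order, with WT levels of 3.43 FPKM at day 2 and 34.3 FPKM at day 4. *Mylpf*, a muscle myosin light chain gene, differed by 1.15 in WT and by -1.14 and -1.08 in the other lines, and at day 0 it was at 33.6 FPKM in WT against 99.7 FPKM in 1KO cells. *Cd37*, a tetraspanin gene, differed by 1.58, -1.61 and -1.33. *DQ267102* differed by -1.24, 1.08 and 1.45. Its WT values were 6 reads at day 0 and 2 reads at day 2. Their FPKM ratio was 0.283, with an exact interval for counting error of 0.028 to 1.58. That interval includes 1, so the direction of *DQ267102* in WT is uncertain.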

How the results depend on the processing

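No paired analysis was possible because each condition has 1 library. Of 198 genes past 1 that were ranked or listed, 16 did not pass 1 under at least 1 alternative, all within 0.15 of 1 to begin with, among them *Cdx1* (-0.87), *Fst* (0.96), *Mir290b* (0.96), *Prdm14* (-0.95), *Ifitm1* (-0.95), *Gpi1* (-0.97), *Krt18* (-0.97), *Aldh1a2* (-0.98), *Fzd2* (-0.99) and *Tead2* (-0.99). Pseudocounts of 0.1 and 0.01 gave 832 and 1032 genes risen, 1552 and 1877 fallen, 8516 and 9361 copies risen, 5036 and 5642 fallen, 41 and 55 families above 0.5, and 7 and 10 below -0.5. The number of lists below -0.5 was 12 and 13, with 2 above 0.5 under the pseudocount of 0.01. A minimum of 1 FPKM gave 10 lists below -0.5 and 32 families above 0.5. Equal sums gave 2 lists above 0.5, and means gave 3 above and 9 below. Scaling over repeat copies left 2300 copies risen and 7 families above against 8 below, and log2 of mean FPKM gave 31 families above. The ATF4 median lay between 1.20 and 1.35, that of glycolysis between -0.99 and -0.91 and that of hypoxia between -0.95 and -0.73. Without fibroblast genes and microRNA loci, 310 genes rose and 560 fell. Depth limits the microRNA loci, as the read counts given for them show.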

Other observations

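Cytosolic ribosomal protein genes were lower as a group but by little, with 80 of 85 below day 0. *Rpl34* and *Rpl22l1* fell, which is 2.35% of the 85 against 3.87% of all genes. The list median was -0.33, against -0.31 in 1KO and -0.23 in 1KO+1CI cells. Many ribosomal protein genes have processed pseudogenes, which makes single values uncertain. None of 27 cell cycle and replication genes passed 1 (median -0.15). With 2.18% risen and 3.87% fallen over all genes, few calls would be found in a list this short. Of 12 retinoic acid genes, *Rarg*, a receptor gene, rose from 33.1 to 85.4 FPKM, and *Dhrs3*, which reduces retinal, fell from 4.60 to 0.37 FPKM beside *Crabp2* and *Aldh1a2*.

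In lists of other lineages, calls went both ways or none passed 1, with some exceptions. The primitive streak list had falls and no rise, and the endothelial and blood list rises and no fall. Over all genes 2.18% rose and 3.87% fell, so lists as short as those in this paragraph may hold few calls or none. Among 15 trophoblast-associated genes, *Krt7* (-1.49), *Tfap2c* (-1.13) and *Krt18* (-1.04) fell and *Plet1* (1.56) rose. Of 10 endothelial and blood genes, *Tek* went from 0.96 to 5.98 FPKM and *Cd34* from 0.38 to 1.78 FPKM. Of 14 neuroectoderm genes, none passed 1 (median 0.02). Among 23 endoderm genes, *Lama1* (-1.21) and *Dab2* (-1.15) fell and *Fst* (1.01) rose. Of 14 primitive streak genes, *Fgf8*, *Sp5*, *Fgf17* (-1.25) and *Cdx1* fell and 0 rose. None of 22 germline genes (median -0.13), 14 heat shock genes (0.15) or 11 Hox genes (-0.02) passed 1, and the 21 lysosome and autophagy genes had a median of 0.29, with *Tfeb* (-1.29) and *Gabarapl1* (-1.18) fallen.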
